A study of Homo sapiens with 12 samples.

Results

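The genes described here are 9 genes of chromosome band 1p36.33, VWA1, ANKRD65, TMEM88B, ATAD3A, ATAD3B, ATAD3C, MRPL20, CCNL2 and AURKAIP1, out of 26641 genes in the table of counts. They were taken by name. The list was drawn up with the differences between recruitment and control in these same libraries known, so for both recruitment comparisons the values of the 9 genes are a description and carry no p-value. P-values of the 9 genes are given only for comparisons among control libraries. Those of neighbours and of pathway and marker genes come from the fit over all genes, and these genes too were listed with results of these data known.

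NCCIT cells come from a human embryonal carcinoma and are a tumour-derived model of pluripotent cells. All libraries are polyA RNA from NCCIT cells that carry a catalytically dead Cas9 fused to the activator VPR (dCas9-VPR, CRISPRa) or to the repressor KRAB (dCas9-KRAB, CRISPRi), brought in by a PiggyBac transposon and switched on with doxycycline for 4 days. Each fusion was combined with 1 of 3 arrays of 12 guide RNAs. The LTR5HS Sp array carries guides against LTR5HS with the scaffold that the S. pyogenes protein binds, and it is called recruitment (2 libraries per fusion). The LTR5HS Sa array carries guides against LTR5HS with the scaffold of another species, and the nontarget Sp array carries guides without a target, and both together are called control (4 libraries per fusion). The 6 resulting lines gave 2 libraries each, from separate biological replicates, so each combination of fusion and array rests on 1 line and a difference between lines cannot be told apart from a difference between arrays.

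LTR5HS is the youngest group of long terminal repeats of the endogenous retrovirus HERVK, and most copies in the human genome are solitary repeats without the proviral genes. Such repeats hold promoter and enhancer sequences that are active in early embryonic and embryonal carcinoma cells. The 1p36.33 band is dense in genes of unrelated function. It holds the gene of a matrix protein (VWA1), a tandem family of mitochondrial ATPases (ATAD3A, ATAD3B and ATAD3C), proteins of the mitochondrial ribosome (MRPL20 and AURKAIP1), a cyclin that works with splicing factors (CCNL2), and a pair of genes with little known function (ANKRD65 and TMEM88B).

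The guides of the LTR5HS Sp array had exact matches next to an NGG motif at 2 places in this region of hg38, and these sites are shown because every distance below is measured from them. Of 12 guides, 5 matched within a stretch of 264 bp at chr1:1410132-1410395, inside an exon of the noncoding gene MRPL20-DT (chr1:1409096-1410618) and 2838 bp from MRPL20. This stretch is called the MRPL20-side cluster. The same 5 guides and 1 more matched within 492 bp at chr1:1580668-1581159, which overlapped no annotated gene and lay 5804 bp from SSU72. This one is called the SSU72-side cluster. The sites read as follows, 5′ to 3′, with the NGG motif in capitals.
LTR5HS-7, both clusters, minus strand: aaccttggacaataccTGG
LTR5HS-4, both clusters, plus strand: agcccgacacccgtaaAGG
LTR5HS-8, both clusters, plus strand: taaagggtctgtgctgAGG
LTR5HS-9, both clusters, minus strand: gacattccattgcccaGGG
LTR5HS-2, both clusters, plus strand: aaaaccgccttagggcTGG
LTR5HS-1, SSU72-side cluster alone, plus strand: tactaagggaactcagAGG

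The clusters were 170272 bp apart and, over the shorter stretch, 258 of 264 bases were the same in both (97.7%, without gaps). No other cluster of guide matches lay to their left on chromosome 1, and the next to the right was 3993 kb away. Across the genome the same search found 2938 sites in 942 clusters with a median of 3 guides per cluster, and 263 clusters (27.9%) matched at least 5 guides. According to the paper, the array is also predicted to match part of the related repeats LTR5A and LTR5B. The search did not sort the clusters by class of repeat, those of this region included. A match of the letters does not show that dCas9 was bound there. Binding data were not analysed here.

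Along the chromosome the 9 genes lie on both sides of the MRPL20-side cluster. To its left, in order of distance between the start of the gene and the centre of the cluster, are MRPL20 (2.97 kb), CCNL2 (10.9 kb) and AURKAIP1 (35.1 kb), all on the minus strand, with the cluster upstream of each. To its right are ANKRD65 (11.01 kb, minus strand, with the cluster downstream), TMEM88B (15.6 kb), VWA1 (25.4 kb), ATAD3C (39.4 kb), ATAD3B (61.5 kb) and ATAD3A (102 kb), the last 5 on the plus strand with the cluster upstream. ATAD3A is closer to the SSU72-side cluster, which lies 68.8 kb downstream of its start. Gene starts are those of the canonical transcripts of GENCODE 44.

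The 12 libraries held between 13601701 and 69797411 counts with a median of 18256928, and 3 counts corresponded to between 0.0430 and 0.221 CPM. CPM is a count scaled to the effective size of its library. The deepest library was dCas9-KRAB nontarget Sp replicate 2. All 8 markers of pluripotent cells had a mean of at least 1 CPM, led by LIN28A with 904 CPM, and their sum ran from 837 to 1507 CPM in the dCas9-VPR control libraries and from 3873 to 4765 CPM in the dCas9-KRAB control libraries. With dCas9-VPR recruitment that sum was 1032 to 1104 CPM, between those of LTR5HS Sa (1355 to 1507 CPM) and nontarget Sp (837 to 945 CPM). L1TD1 rose (1.62 ± 0.26, log2) and SOX2 fell (-1.24 ± 0.25), both at an adjusted p under 0.05 in edgeR's quasi-likelihood test. These are 2 of 8 tested markers (25%), where 28.0% of all tested genes passed with CRISPRa. Between the control arrays with dCas9-VPR, 2 of the 8 markers passed as higher with LTR5HS Sa, where 5.24% of all tested genes passed. The sum of 3 neural markers was at most 4.87 CPM and that of 5 mesoderm and endoderm markers at most 9.58 CPM. With dCas9-VPR the latter was 8.29 to 9.58 CPM with recruitment and 5.84 to 6.86 CPM in control. Of these 5, GATA6 rose by 1.29 ± 0.22 on the log2 scale (adjusted p = 0.0032, edgeR's quasi-likelihood test). In the dCas9-VPR recruitment libraries, 3 trophoblast markers summed to between 32.7 and 43.1 CPM against 6.51 to 13.5 CPM in control, and 3 fibroblast markers to between 2899 and 3008 CPM against 60.3 to 90.2 CPM, where COL1A1 alone of the 3 was tested and rose by 5.41 ± 0.17 on the log2 scale (adjusted p = 1.6e-06, edgeR's quasi-likelihood test). Of the 3 fibroblast markers only COL1A1 had a mean of at least 1 CPM over the libraries, so their sum is mostly that of 1 gene. With dCas9-KRAB the trophoblast markers summed to between 4.61 and 6.61 CPM with recruitment and between 1.63 and 2.85 CPM in control. The fibroblast markers summed there to between 4.74 and 8.30 CPM with recruitment and between 6.57 and 17.5 CPM in control. Of the 3 trophoblast markers 2 were tested, and CDX2 (3.72 ± 0.39, log2) and GATA3 (1.48 ± 0.29) rose with CRISPRa. GATA3 also rose with CRISPRi (1.47 ± 0.29), where 2.77% of all tested genes passed. These calls had an adjusted p under 0.05 in edgeR's quasi-likelihood test. The part of these markers in the values of the 1p36.33 genes was not tested.

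In the 8 control libraries, levels per length of transcript (TPM, a count divided by gene length and scaled to one sum in every library, computed from the counts and the gene lengths) spanned a wide range over the 9 genes. The mitochondrial ribosome genes were highest, with a median of 579 TPM for AURKAIP1 (397 to 679) and 405 TPM for MRPL20 (320.3 to 483). CCNL2 (137 TPM), ATAD3A (136 TPM), ATAD3B (105 TPM) and VWA1 (71.9 TPM) followed, and among these 4 the ranges of each gene and the next overlapped. TMEM88B had a median of 15.6 TPM, ANKRD65 of 4.07 TPM and ATAD3C of 2.08 TPM, with a range for ATAD3C of 1.84 to 2.91 TPM that lay below that of ANKRD65 (3.12 to 5.40 TPM). By median TPM, ATAD3C was the lowest of the 9 genes in control cells. In CPM, without the scaling by length, TMEM88B (2.14) and ANKRD65 (3.15) had lower means than ATAD3C (3.48) in the dCas9-VPR control libraries. In the dCas9-KRAB control libraries ATAD3C (3.12) was below ANKRD65 (3.61) and TMEM88B (3.72).

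VWA1 encodes a matrix protein with a von Willebrand factor A domain that is found in basement membranes. With dCas9-VPR, VWA1 had 685 and 988 CPM in the recruitment libraries, against 131 and 143 CPM in the LTR5HS Sa libraries and 137 and 199.9 CPM in the nontarget Sp libraries. With dCas9-KRAB, it had 14.1 and 12.3 CPM in the recruitment libraries, against 79.9 and 116 CPM with LTR5HS Sa and 52.0 and 65.3 CPM with nontarget Sp. With either fusion both recruitment libraries lay outside the range of all 4 control libraries, above it for CRISPRa and below it for CRISPRi. The log2 fold change from edgeR's quasi-likelihood fit was 2.46 ± 0.20 (SE) with CRISPRa, which is 5.49-fold higher, and -2.56 ± 0.31 with CRISPRi, which is 5.90-fold lower. The CRISPRi value was -2.89 against the LTR5HS Sa libraries alone and -2.15 against the nontarget Sp libraries alone.

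ANKRD65, a gene for a protein of ankyrin repeats, is the next gene to the right of the MRPL20-side cluster and points toward it. It had 11.7 and 20.5 CPM in the dCas9-VPR recruitment libraries, against 4.02 and 3.33 CPM with LTR5HS Sa and 2.79 and 2.47 CPM with nontarget Sp. In the dCas9-KRAB recruitment libraries it had 1.06 and 0.406 CPM, which are 19 and 6 counts, against 3.64 and 4.58 CPM with LTR5HS Sa and 2.68 and 3.52 CPM with nontarget Sp. Recruitment and control again did not overlap with either fusion, in opposite directions. The log2 fold changes were 2.35 ± 0.28 and -2.24 ± 0.40, and the CRISPRi value ran from -1.74 to -3.12 when either recruitment library was left out.

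TMEM88B encodes a transmembrane protein and starts between ANKRD65 and VWA1. It had 4.73 and 10.2 CPM in the dCas9-VPR recruitment libraries, above the control range of 1.29 to 2.77 CPM. In the dCas9-KRAB recruitment libraries it had 0.785 and 1.49 CPM (14 and 22 counts), below the control range of 2.40 to 4.97 CPM. The log2 fold changes were 1.79 ± 0.37 with CRISPRa and -1.71 ± 0.38 with CRISPRi. The first rested largely on replicate 2 and was 1.13 without it.

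The ATAD3 genes lie in tandem, in the order ATAD3C, ATAD3B and ATAD3A going away from the MRPL20-side cluster. ATAD3A is an ATPase of the inner mitochondrial membrane that is tied to the organization of mitochondrial DNA, and ATAD3B and ATAD3C are copies of it found in primates. ATAD3C, the nearest copy, had 40.4 and 39.6 CPM in the dCas9-VPR recruitment libraries, against 3.70 and 2.48 CPM with LTR5HS Sa and 3.67 and 4.05 CPM with nontarget Sp. With dCas9-KRAB it had 1.46 and 1.02 CPM (26 and 15 counts) with recruitment, against 3.19 and 3.03 CPM with LTR5HS Sa and 3.02 and 3.26 CPM with nontarget Sp. Its log2 fold change with CRISPRa, 3.52 ± 0.19 or 11.5-fold higher, was the highest of the 9 genes. With CRISPRi it was -1.32 ± 0.26, or 2.50-fold lower.

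ATAD3B had 260.2 and 276 CPM in the dCas9-VPR recruitment libraries and between 111 and 180.2 CPM in the 4 control libraries. ATAD3A had 243 and 276 CPM with recruitment and between 132 and 178 CPM in control. Both genes therefore lay above control with dCas9-VPR, with log2 fold changes of 0.88 ± 0.18 for ATAD3B and 0.68 ± 0.14 for ATAD3A. With dCas9-KRAB neither lay below it. ATAD3B had 84.3 and 108 CPM with recruitment, against 85.5 to 121 CPM in control, and a log2 fold change of -0.01 ± 0.16. ATAD3A had 138 and 172 CPM, against 118 to 150.3 CPM in control, and a log2 fold change of 0.21 ± 0.14.

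Within the family, ATAD3C was 5.69% and 5.11% of the summed TPM of the 3 genes in the dCas9-VPR recruitment libraries, against 0.518% to 1.115% in control, and 0.485% and 0.270% in the dCas9-KRAB recruitment libraries, against 0.872% to 1.15%. The ratio of ATAD3B to ATAD3A was 1.01 and 0.939 in the dCas9-VPR recruitment libraries, against 0.789 to 0.950 in control, so these ranges overlapped. It was 0.572 and 0.593 in the dCas9-KRAB recruitment libraries, below the control range of 0.630 to 0.754. The copies are alike in sequence and the authors' counting could assign shared reads to either. Of all 150-bp windows of the annotated transcripts, 8.38% of ATAD3A, 3.36% of ATAD3B and 1.66% of ATAD3C were also present in another copy. With the counts of the 3 genes summed, the log2 fold changes were 0.87 ± 0.15 with CRISPRa and 0.11 ± 0.14 with CRISPRi.

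**Figure D1:**
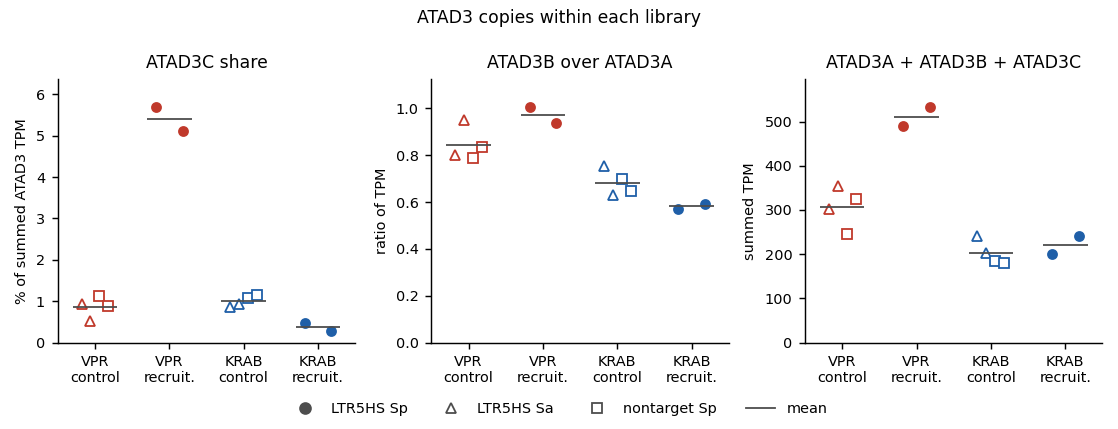
Share of ATAD3C in the summed TPM of ATAD3A, ATAD3B and ATAD3C (left, in percent), ratio of ATAD3B to ATAD3A TPM (middle) and summed TPM (right) in each library, for dCas9-VPR (VPR) and dCas9-KRAB (KRAB) lines with control or recruitment (recruit.) arrays. Each point is 1 library and lines are means. The share of ATAD3C in the dCas9-VPR recruitment libraries, 5.69% and 5.11%, lies above all other libraries.

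MRPL20 encodes a protein of the large subunit of the mitochondrial ribosome and is the protein-coding gene closest to the MRPL20-side cluster. It had 135 and 117 CPM in the dCas9-VPR recruitment libraries, inside or just above the control range of 105 to 126 CPM. With dCas9-KRAB it had 59.4 and 60.6 CPM with recruitment, against 92.2 and 106 CPM with LTR5HS Sa and 99.3 and 116 CPM with nontarget Sp. Its log2 fold change was 0.12 ± 0.11 with CRISPRa and -0.78 ± 0.12 with CRISPRi, or 1.72-fold lower.

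CCNL2 encodes cyclin L2, a partner of the CDK11 kinases that takes part in transcription and splicing. It had 227 and 242 CPM in the dCas9-VPR recruitment libraries, within the control range of 194 to 247 CPM. With dCas9-KRAB it had 106 and 125 CPM with recruitment, below the control range of 162 to 180.3 CPM. Its log2 fold changes were 0.06 ± 0.12 and -0.55 ± 0.11.

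AURKAIP1 encodes a protein of the small subunit of the mitochondrial ribosome that was first described as binding the Aurora A kinase. It had 261 and 250.3 CPM in the dCas9-VPR recruitment libraries, within the control range of 240.4 to 281 CPM. In the dCas9-KRAB recruitment libraries it had 175 and 219 CPM, against 177 to 261 CPM in control, where the ranges overlapped. Its log2 fold changes were -0.03 ± 0.10 and -0.16 ± 0.16.

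**Figure D2:**
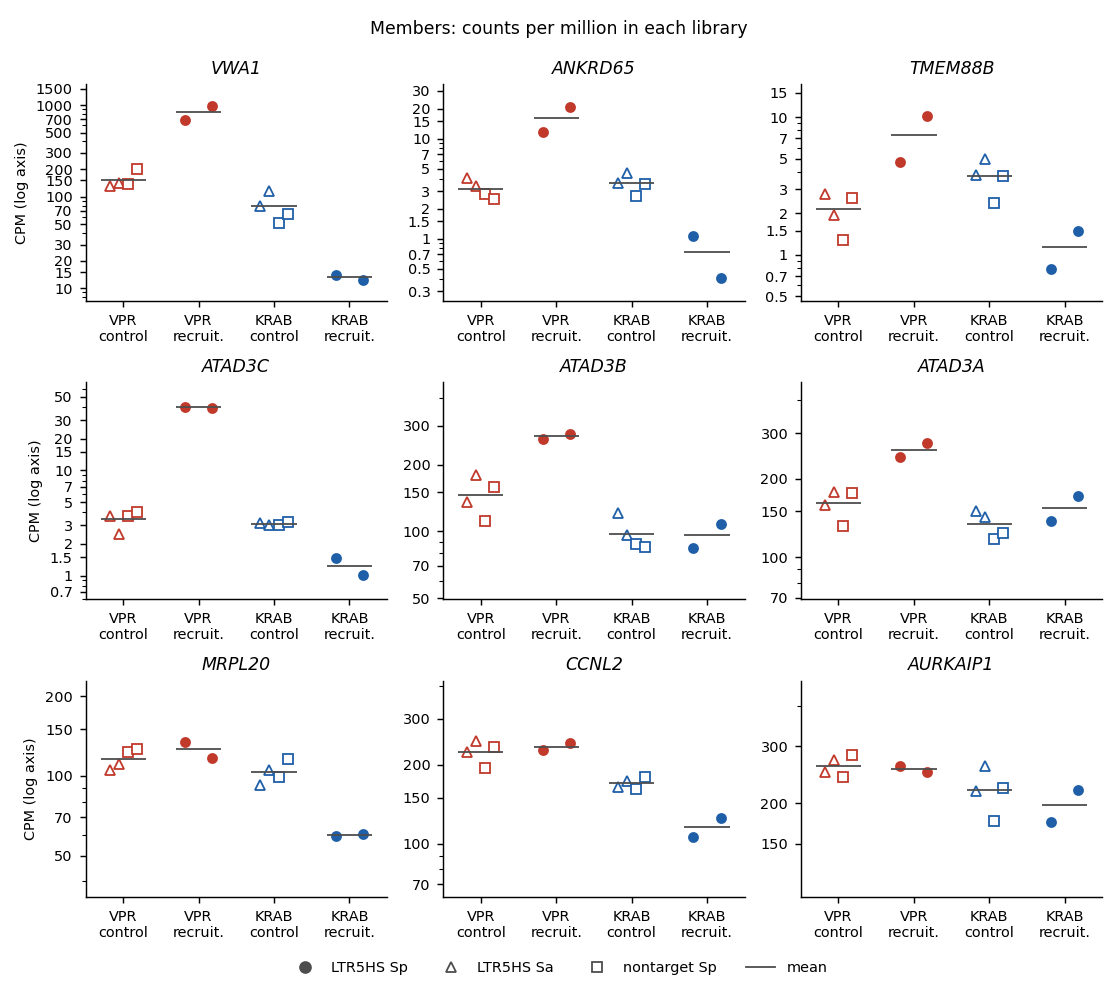
CPM on a log axis, scaled for each gene by itself, in each of the 12 libraries for the 9 genes. Columns are dCas9-VPR (VPR) and dCas9-KRAB (KRAB) lines with control or recruitment (recruit.) arrays, symbols mark the array and lines are means. The top row and ATAD3C lie above control with dCas9-VPR and below it with dCas9-KRAB, ATAD3A and ATAD3B are above control with dCas9-VPR, and MRPL20 and CCNL2 are below control with dCas9-KRAB.

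Over the list, 6 of 9 genes passed an adjusted p of 0.05 as higher with CRISPRa, where 15.7% of 16271 tested genes did. The same number passed as lower with CRISPRi, where 1.94% of 15520 tested genes did. These counts come from the comparisons that the list was drawn from, and nothing is read from them. Their median log2 fold change was 0.88 (CRISPRa) and -0.78 (CRISPRi), beside -0.02 and 0.000596 over all tested genes. All 9 genes were tested with both fusions.

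The 9 genes fell into 4 patterns. VWA1, ANKRD65, TMEM88B and ATAD3C lay above all control libraries with dCas9-VPR and below all of them with dCas9-KRAB (4 of 9, against 4.83% of 15145 genes tested with both fusions). ATAD3A and ATAD3B lay above control with dCas9-VPR and overlapped it with dCas9-KRAB. Single-fusion background was 25.5% of tested genes above control with dCas9-VPR and 12% below it with dCas9-KRAB. MRPL20 and CCNL2 overlapped control with dCas9-VPR and lay below it with dCas9-KRAB. AURKAIP1 overlapped control with both fusions. Along the chromosome, the genes that lay above control with dCas9-VPR were the 6 to the right of the MRPL20-side cluster, and the 3 to its left were not among them. Those that lay below control with dCas9-KRAB were MRPL20 and CCNL2 to its left and ANKRD65, TMEM88B, VWA1 and ATAD3C to its right. AURKAIP1, at 35.1 kb, starts closer to the cluster than ATAD3C, at 39.4 kb, and overlapped control. This order is a description of genes chosen on these values.

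The other genes of the band were not chosen on their values one by one, and 30 of 31 listed neighbours were found in the table, 5 of them under an older symbol. With CRISPRa, 27 were tested, and 4 rose and 1 fell at an adjusted p under 0.05 (edgeR's quasi-likelihood test, Benjamini-Hochberg adjustment over all tested genes). These calls are 18.5% of the tested neighbours, where 28.0% of all tested genes passed in either direction and 15.7% passed as higher. With CRISPRi, 24 were tested and 1 fell (4.17%), where 2.77% of all tested genes passed in either direction and 1.94% passed as lower. Their median log2 fold change was 0.22 with CRISPRa and -0.04 with CRISPRi. The neighbours shared the libraries with the 9 genes and were listed with results of these data known.

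The 4 neighbours that rose with CRISPRa, SSU72, FNDC10, MIB2 and MMP23B, lie around the SSU72-side cluster. Grouped by position after their values had been seen, 0 of 17 tested neighbours to the left of the MRPL20-side cluster rose and 1 fell, 1 of 1 between the clusters rose, and 3 of 9 to the right of the SSU72-side cluster rose. Over all positions 4 of 27 rose, where 15.7% of all tested genes did, and nothing is read from the grouping. With the replicate number as a block, the calls with CRISPRa were 8 in place of 5, with 0 of 17 higher and 2 lower to the left, 1 of 1 higher between the clusters and 5 of 9 higher to the right. In that fit 30.5% of all tested genes passed in either direction. The block added PUSL1 (-0.43 ± 0.11, adjusted p = 0.026, edgeR's quasi-likelihood test), CDK11B (0.33 ± 0.10, adjusted p = 0.043) and SLC35E2B (0.31 ± 0.09, adjusted p = 0.040). Without the block, CDK11B and CDK11A, the kinases that bind cyclin L, had log2 fold changes of 0.33 ± 0.13 and 0.32 ± 0.11 (adjusted p = 0.097 and 0.067, edgeR's quasi-likelihood test), and SLC35E2B, which lies between them, had 0.31 ± 0.17 (adjusted p = 0.22). TNFRSF18, a receptor of the tumour necrosis factor family that starts 204 kb to the left of the MRPL20-side cluster, had 1.07 ± 0.42 and did not pass (adjusted p = 0.095, edgeR's quasi-likelihood test).

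FNDC10 (C1orf233 in the table), a gene for a membrane protein with a fibronectin type III domain, starts 19.2 kb to the right of the SSU72-side cluster. It had 216 and 294 CPM in the dCas9-VPR recruitment libraries, against 42.3 and 46.7 CPM with LTR5HS Sa and 24.8 and 37.0 CPM with nontarget Sp. In the dCas9-KRAB lines it had 16.6 and 22.1 CPM with recruitment, against 52.9 and 57.2 CPM with LTR5HS Sa and 51.5 and 65.8 CPM with nontarget Sp. FNDC10 rose by 2.76 ± 0.24 with CRISPRa on the log2 scale (adjusted p = 8.7e-05, edgeR's quasi-likelihood test) and fell by 1.56 ± 0.17 with CRISPRi (adjusted p = 0.000595). It was the only neighbour past the threshold with both fusions, and it kept both calls under all 15 alternatives.

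MIB2, an E3 ubiquitin ligase of the Notch pathway, starts 34.6 kb to the right of the same cluster. It had 318 and 394 CPM in the dCas9-VPR recruitment libraries and between 81.7 and 147 CPM in control, and rose by 1.57 ± 0.21 on the log2 scale (adjusted p = 0.00109, edgeR's quasi-likelihood test). In the dCas9-KRAB lines it had 82.6 and 108 CPM with recruitment and between 62.3 and 107 CPM in control, with a log2 fold change of 0.12 ± 0.20. MIB2 was above control with the activator and overlapped control with the repressor.

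SSU72, a phosphatase that acts on the C-terminal domain of RNA polymerase II, starts 6.05 kb to the left of that cluster, which lies upstream of it. It had 328 and 335 CPM in the dCas9-VPR recruitment libraries and between 174 and 203 CPM in control, and rose by 0.82 ± 0.10 (adjusted p = 0.000685, edgeR's quasi-likelihood test). In dCas9-KRAB cells it had 168 and 170.2 CPM with recruitment, below the control range of 189 to 224 CPM, but its log2 fold change of -0.28 ± 0.11 did not pass (adjusted p = 0.26). SSU72 and MRPL20 are each the closest protein-coding gene to 1 of the clusters.

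MMP23B, a matrix metalloprotease, had 14 and 18 counts in the dCas9-VPR recruitment libraries and 1 to 5 in control, with a log2 fold change of 2.51 ± 0.49 (adjusted p = 0.00651, edgeR's quasi-likelihood test), and the call was lost without the LTR5HS Sp library of replicate 2 (adjusted p = 0.071). MMP23B has a near-identical copy, MMP23A, and its reads could have been split between them. In the dCas9-KRAB libraries MMP23B had at most 1 count and was not tested.

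AGRN, which encodes the basement membrane proteoglycan agrin, starts 390.1 kb to the left of the MRPL20-side cluster and was the only neighbour that fell with CRISPRa. It had 325 and 544 CPM with recruitment, below the control range of 651 to 1044 CPM, and fell by 1.00 ± 0.26 on the log2 scale (adjusted p = 0.021, edgeR's quasi-likelihood test). The call was lost without the LTR5HS Sp library of replicate 1 (adjusted p = 0.15). With CRISPRi its log2 fold change was 0.16 ± 0.27, and its control libraries differed by array, with 456 and 413 CPM for LTR5HS Sa against 226 and 241 CPM for nontarget Sp. Against nontarget Sp alone AGRN rose with CRISPRi by 0.67 (adjusted p = 0.030).

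**Figure D3:**
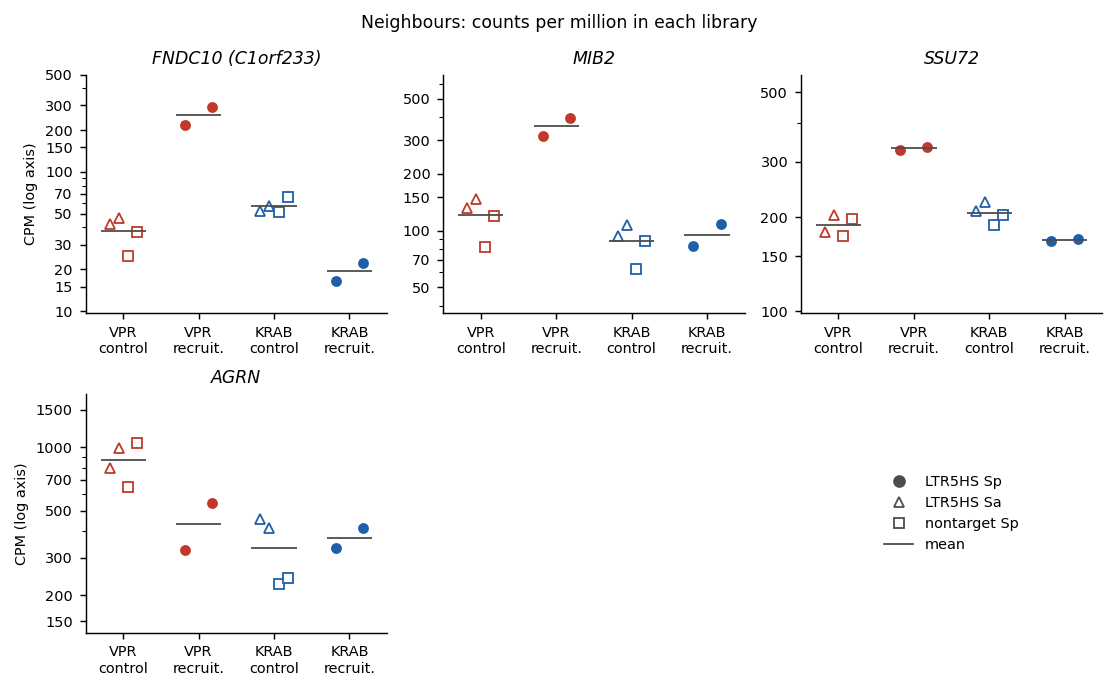
CPM on a log axis, scaled for each gene by itself, in each of the 12 libraries for 4 neighbours past the threshold with either fusion. Columns are dCas9-VPR (VPR) and dCas9-KRAB (KRAB) lines with control or recruitment (recruit.) arrays, symbols mark the array and lines are means. FNDC10 is above control with dCas9-VPR and below it with dCas9-KRAB, MIB2 is above control with dCas9-VPR, and AGRN is below it.

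Whether recruitment acted differently with the 2 fusions was tested for the neighbours as an interaction of recruitment and fusion in a fit of all 12 libraries. The change with CRISPRi minus that with CRISPRa was -4.34 ± 0.27 (log2) for FNDC10 (adjusted p = 2.8e-07), -1.46 ± 0.26 for MIB2 (adjusted p = 0.00126), -1.10 ± 0.13 for SSU72 (adjusted p = 5.6e-05) and 1.23 ± 0.30 for AGRN (adjusted p = 0.00947), all in edgeR's quasi-likelihood test. These 4 of 26 tested neighbours passed, where 26.0% of 16673 tested genes did. MMP23B (-5.15 ± 2.1, adjusted p = 0.098) did not. With the replicate number as a block the interaction passed for 10 of 26 neighbours, these 4 with PUSL1, SCNN1D, CPTP, CDK11B, SLC35E2B and NADK, where 36.2% of all tested genes passed.

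The noncoding gene MRPL20-AS1 (LOC148413 in the table) overlaps the end of MRPL20 on the other strand and starts 10.7 kb from the MRPL20-side cluster. It is described because it overlaps MRPL20. It had 40.6 and 44.3 CPM in the dCas9-VPR recruitment libraries and between 34.9 and 45.4 CPM in control, and 27.2 and 30.3 CPM in the dCas9-KRAB recruitment libraries against 29.6 to 39.9 CPM. Its log2 fold changes were 0.03 ± 0.14 and -0.26 ± 0.15. The methods name no step that marks strand, so reads where MRPL20 and MRPL20-AS1 overlap cannot be told apart. The noncoding gene MRPL20-DT, in which the guide sites lie, was not analysed here.

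**Figure D4:**
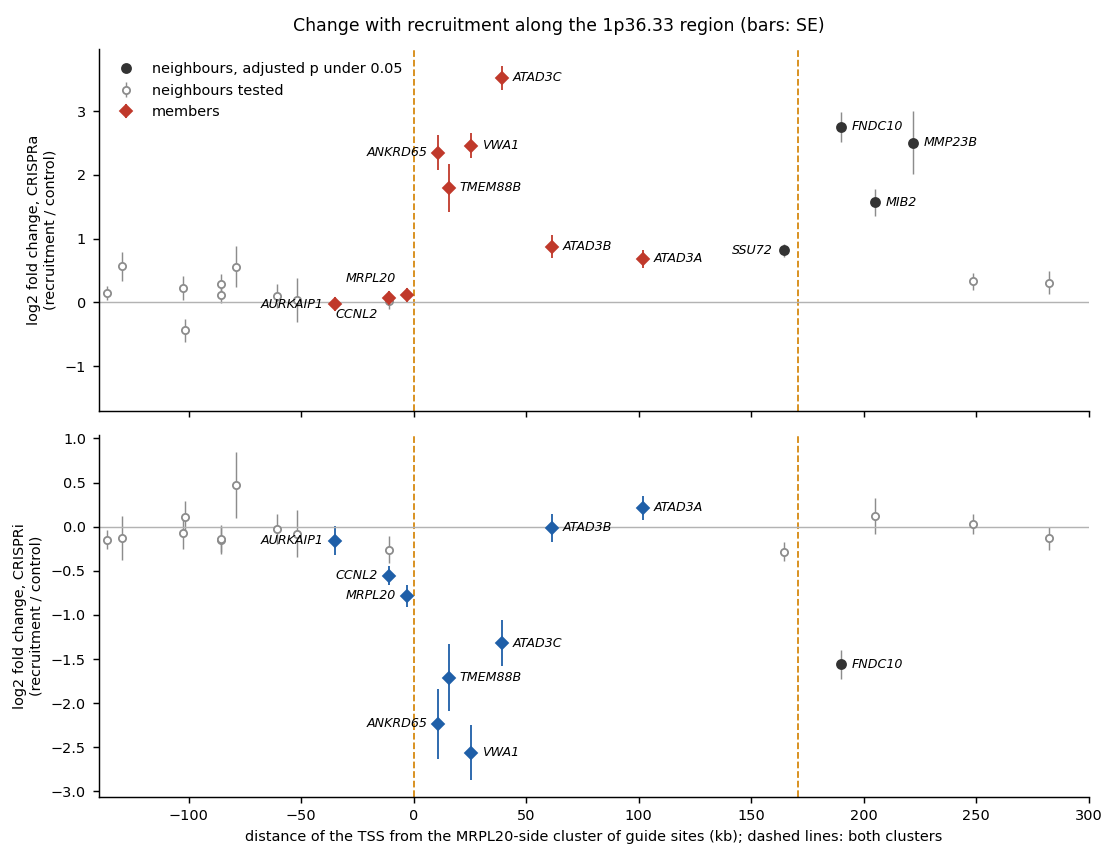
log2 fold change between recruitment and control with CRISPRa (top) and CRISPRi (bottom) against the distance of each gene's start from the MRPL20-side cluster of guide sites, in kb. Diamonds are the 9 genes, circles are tested neighbours (filled where adjusted p was under 0.05), bars are standard errors and dashed lines mark both clusters. The plot runs from UBE2J2 on the left to SLC35E2B on the right. Neighbours farther out are not drawn, among them AGRN, which fell with CRISPRa, and TNFRSF18 (1.07 with CRISPRa).

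Promoter sequences were compared for composition and short motifs. RefSeq sequences of GRCh38.p14 (250 bases before to 50 after the gene start) were at hand for 7 of 9 genes. The promoters of VWA1 and ATAD3C are shown because both genes lay above control with dCas9-VPR and below it with dCas9-KRAB, with capitals for GC boxes (GGGCGG or its complement CCGCCC).
VWA1, chr1:1435440-1435739, plus strand: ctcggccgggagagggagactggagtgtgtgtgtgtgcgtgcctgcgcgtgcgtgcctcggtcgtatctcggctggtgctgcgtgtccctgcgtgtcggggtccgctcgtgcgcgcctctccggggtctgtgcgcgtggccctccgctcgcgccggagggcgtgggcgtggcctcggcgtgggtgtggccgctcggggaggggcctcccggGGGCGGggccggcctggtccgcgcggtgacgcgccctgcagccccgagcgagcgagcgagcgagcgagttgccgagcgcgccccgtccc
ATAD3C, chr1:1449439-1449738, plus strand: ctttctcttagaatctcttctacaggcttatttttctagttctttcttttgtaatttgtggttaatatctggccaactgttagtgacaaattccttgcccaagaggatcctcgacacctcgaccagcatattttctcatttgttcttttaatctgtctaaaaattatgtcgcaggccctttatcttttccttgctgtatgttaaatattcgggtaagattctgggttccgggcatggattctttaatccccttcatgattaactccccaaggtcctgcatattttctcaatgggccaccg

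The VWA1 promoter had a GC content of 77.3%, 47 CpG dinucleotides and 1 GC box, whereas that of ATAD3C had a GC content of 39.7%, 6 CpG dinucleotides and no GC box. The median GC content over 27305 RefSeq promoters was 58.3%, and 44.6% of them held a GC box on either strand. MRPL20, which lay below control with dCas9-KRAB and not above it with dCas9-VPR, had 69.3% GC, 39 CpG dinucleotides and no GC box, and CCNL2, with the same pattern, had 73.7% GC and 4 GC boxes. ANKRD65 had 62.0% GC with 6 CpG dinucleotides. None of the 7 promoters held the octamer ATGCAAAT or a TATAAA motif on either strand, which are present in 1.802% and 11.95% of all promoters, and a CCAAT motif, present in 35.7%, was found in those of AURKAIP1 and CCNL2. These are matches of letters and not sites shown to be used.

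The comparison of LTR5HS Sa with nontarget Sp sets only control libraries against each other, and the 9 genes were tested in it. The recruitment libraries were part of the same fit of all 12 libraries, so they entered its filter, normalization and estimate of the spread. With dCas9-VPR, 0 of 9 genes passed in edgeR's quasi-likelihood test, 0 had an unadjusted p under 0.05 and DESeq2 called 0, where 5.24% of all tested genes passed. With dCas9-KRAB, 0 of 9 passed, 1 had an unadjusted p under 0.05 and DESeq2 called 0, where 0.612% passed. That gene was VWA1, which was higher with LTR5HS Sa by 0.74 ± 0.23 on the log2 scale (adjusted p = 0.24) and passed under 3 of 18 alternatives. Among these was the fit of the control libraries alone (adjusted p = 0.041, edgeR's quasi-likelihood test), so this call depended on whether the recruitment libraries were in the fit. The corresponding difference for VWA1 with dCas9-VPR was -0.30 ± 0.22. The test of whether the arrays differed between fusions gave 0 of 9 genes with edgeR, 1 at an unadjusted p under 0.05 (VWA1, 1.03 ± 0.32, adjusted p = 0.14) and 1 with DESeq2, where 2.37% of all genes passed. The size of the CRISPRi value of VWA1 thus depended on the array taken as control, as given above.

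Between the control lines of the fusions, 5 of 9 genes passed, where 59.1% of all tested genes did. VWA1 was lower with dCas9-KRAB by 1.00 ± 0.16 on the log2 scale (adjusted p = 2.0e-04, edgeR's quasi-likelihood test), with 52.0 to 116 CPM against 131 to 199.9 CPM in the 4 libraries of each. ATAD3B (-0.59 ± 0.13, adjusted p = 0.0025), CCNL2 (-0.40 ± 0.09, adjusted p = 0.0019) and ATAD3A (-0.28 ± 0.11, adjusted p = 0.039) were also lower. TMEM88B was higher by 0.79 ± 0.31 (adjusted p = 0.044). VWA1, ATAD3B and CCNL2 passed under all 18 alternatives, ATAD3A under 12 and TMEM88B under 11. The markers of pluripotent cells, which summed to 837 to 1507 CPM in the dCas9-VPR and 3873 to 4765 CPM in the dCas9-KRAB control libraries, moved with the same comparison, and their part in it was not tested. ATAD3C, with 2.48 to 4.05 and 3.02 to 3.26 CPM, had a difference of -0.14 ± 0.16 (adjusted p = 0.45).

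**Figure D5:**
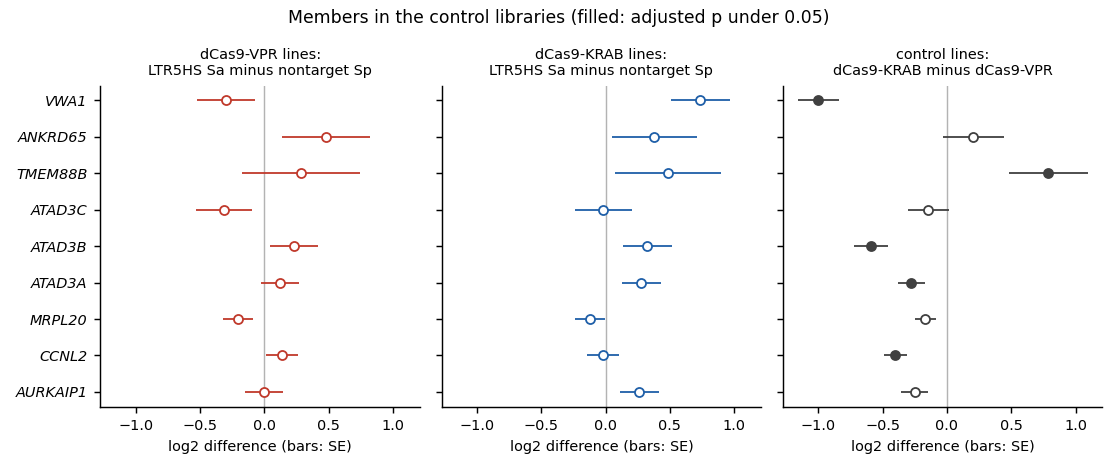
log2 differences of the 9 genes among control libraries, with standard errors: LTR5HS Sa minus nontarget Sp in dCas9-VPR lines (left) and dCas9-KRAB lines (middle), and dCas9-KRAB minus dCas9-VPR control lines (right). Filled points passed an adjusted p of 0.05 in edgeR's quasi-likelihood test, which 0, 0 and 5 of 9 genes did.

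The other genes of the pathways that the 9 genes belong to were counted in the same fits, without the 9 genes. Of 79 tested genes of the mitochondrial ribosome, 2 rose and 9 fell with CRISPRa, where 28.0% of all tested genes passed in either direction (median log2 fold change -0.14, beside -0.02 for all tested genes). These 11 genes are 13.9% of the list. The highest absolute values among them were those of MRPS6 (-0.78 ± 0.15), MRPS11 (0.71 ± 0.12) and MRPS25 (-0.61 ± 0.12). With CRISPRi 1 fell, MRPL18 (-2.76 ± 0.18, adjusted p = 4.8e-05, edgeR's quasi-likelihood test), which is 1.27% of the list, where 2.77% of all tested genes passed, and the median was 0.04. Of 13 tested genes of the mitochondrial nucleoid other than ATAD3A and ATAD3B, 1 fell with CRISPRi, SSBP1 (-0.60 ± 0.13). With CRISPRa 0 of the 13 passed in edgeR's quasi-likelihood test, 0 had an unadjusted p under 0.05 and DESeq2 called 0. CCNL1, CDK11A and CDK11B had a median log2 fold change of 0.32 with CRISPRa and 0.03 with CRISPRi.

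VWA1 belongs to the basement membrane list, of which 17 other genes were tested. With CRISPRa 4 rose and 6 fell, AGRN included, which is 58.8% of the list where 28.0% of all tested genes passed, with a median log2 fold change of 0.21. The highest absolute values among these were those of COL6A3 (3.22 ± 0.36), LAMA1 (-2.18 ± 0.11) and COL4A6 (1.93 ± 0.14), which encode a collagen VI chain, a laminin chain and a collagen IV chain. With CRISPRi 0 of the 17 passed in edgeR's quasi-likelihood test, 2 had an unadjusted p under 0.05 and DESeq2 called 0, with a median of 0.14. The list also differed among control libraries, where with VWA1 18 genes were tested. With LTR5HS Sa against nontarget Sp, 2 were higher and 5 lower in dCas9-VPR lines, where 5.24% of all tested genes passed. In dCas9-KRAB lines 2 were higher and 0 lower (0.612%). Between the control lines, 2 were higher and 13 lower with dCas9-KRAB (59.1%). The part of such line differences in the CRISPRa counts was not tested. The lists were drawn up with results of these data known, so these counts are a description.

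By Pearson's r of log2 CPM over the 12 libraries, the genes most like VWA1 among 16648 compared were AP2M1, RP9P, LIPH, MOGS and ZNF528-AS1, with r from 0.974 to 0.979. Those most like ATAD3C were LIX1L, GJA5, ASIC3, KCNA6 and CEACAM19, with r from 0.979 to 0.995. ANKRD65 was in place 75 for VWA1 (r = 0.926) and in place 516 for ATAD3C (r = 0.900), and VWA1 was in place 503 for ATAD3C (r = 0.902). The libraries fall into groups by fusion and array, which all genes share, so these values describe likeness over 6 lines and carry no test.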

How the data were processed

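Reads of polyA RNA were trimmed by the authors with cutadapt, aligned with hisat2 to an hg38 index and assigned to gene models with featureCounts. The submitters' processing notes name cutadapt 1.8.1, HISAT2 2.1.0 and featureCounts 1.4.6-p2; the gene annotation and strand setting are not given in the sources used here. The deposited table holds the authors' raw counts, not normalized, for each gene in each library, with a column of gene length in bp. Counts of repeat transcripts and the authors' ChIP-seq data were not analysed here.

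Counts were fitted with edgeR 4.0.16 in R 4.3.3 (filterByExpr, TMM, quasi-likelihood F-test, Benjamini-Hochberg adjustment over all tested genes, threshold 0.05). Standard errors (values after ±) were computed as the absolute log2 value divided by the square root of the F statistic. They thus restate that test, also for the 9 genes, and rest on the same spread. Recruitment (LTR5HS Sp) was compared with both control arrays within each fusion, and control contrasts and the interaction used all 12 libraries as 6 groups. The neighbours' interaction, with and without the block, their grouping by position and the list counts in control contrasts and without the 9 genes were chosen after seeing the data. CPM use TMM-normalized library sizes over 12 libraries, and TPM were computed from the counts and gene lengths. In the fits of 6 groups, p-values measure the spread between replicates of 1 line. In the recruitment comparisons the 4 control libraries of a fusion form 1 group, although they come from both control lines. There the spread also holds the difference between the control lines, and libraries of the same line are treated as independent. The pipeline was tested on simulated data. The precision of low genes is set by their counts, and floors of 3 counts cover counting error only.

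Guide sequences come from the study's supplementary table, and exact matches with an NGG motif were searched on both strands of hg38 and joined within 2000 bp. Python 3.11.15, pandas 2.3.3, NumPy 2.4.6 and matplotlib 3.10.9 were used for the rest.

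The 9 genes, the neighbours and the pathway and marker lists were chosen with earlier results of these data known. A neighbour that the list first held is not reported here. Named neighbours are those past the threshold with either fusion, at most 10. Named genes of a list are the called ones with the highest absolute log2 fold change, at most 3, and the genes most alike are the 5 with the highest Pearson's r of log2 CPM (prior count 2). Alternatives were DESeq2 1.42.0 with its Wald test, DESeq2's size factors, no filter, the replicate number as a block, each control array alone, all 12 libraries or the control libraries alone in one fit, counts thinned to the lowest total, summed ATAD3 counts and leaving out each library.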

Additional observations from a re-analysis of the deposited data

Results flagged for a closer look

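VWA1 in the 4 dCas9-VPR control libraries stood out because 1 library lay far from the rest. Nontarget Sp replicate 2 had 199.9 CPM against 131, 137 and 143 CPM, and its gap to the nearest library was 0.836 of the whole range, above Dixon's 95% critical value for 4 samples. Chance marks about 1 in 20 groups in this way.

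For 4 neighbours the effect of recruitment differed between the fusions in a test of the interaction (edgeR's quasi-likelihood test, 12 libraries), with a log2 difference, dCas9-KRAB minus dCas9-VPR, of -4.34 for FNDC10 (C1orf233), -1.46 for MIB2, -1.10 for SSU72 and 1.23 for AGRN. They are 15.4% of 26 tested neighbours, where 26.0% of 16673 tested genes passed the same test. FNDC10 had opposite signs with the fusions, a log2 fold change of 2.76 with dCas9-VPR and -1.56 with dCas9-KRAB.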

How the results depend on the processing

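No called value reversed under any alternative run. Of the values that answer a comparison, 122 kept their direction and their side of the threshold, or stayed within 1.5 times a count, and 10 did not. With nontarget Sp alone as control, 2 neighbours passed with CRISPRi in place of 1, AGRN being added. In the comparison of control arrays with dCas9-KRAB, 1 of the 9 genes (VWA1) passed in place of 0 with the control libraries alone (adjusted p = 0.0405), without a filter (0.0270) and with the replicate block (0.0117). In the test of arrays by fusion, 1 (VWA1) passed in place of 0 with DESeq2's Wald test (adjusted p = 0.0496), without a filter (0.0121) and with the replicate block (0.00696). Leaving out each library gave 3 to 6 genes in place of 5 for the control lines of the fusions, and the count was 3 without dCas9-KRAB LTR5HS Sa replicate 1 and without dCas9-VPR LTR5HS Sa replicate 2. It gave 4 to 6 neighbours in place of 5 with CRISPRa. The cause was not tested.

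Samples of a fusion share only a replicate number in the labels. The differences between replicates 1 and 2 correlated across genes with r from 0.181 to 0.375 between arrays of the same fusion (6 pairs) and from 0.0569 to 0.333 between fusions (9 pairs). With the replicate block, the neighbours past the threshold with CRISPRa were 8 in place of 5, the interaction calls 10 in place of 4 and the control line calls 7 in place of 5, and the median log2 fold changes of the 9 genes were 0.90 and -0.78; apart from the VWA1 calls above it added MRPL20 and AURKAIP1 to the control line calls and removed none. Depth limits the genes with few counts: ANKRD65, TMEM88B and ATAD3C rest on 6 to 26 counts in the dCas9-KRAB recruitment libraries. Each line has 2 libraries, so any fold change of the 9 genes rests on a single pair of recruitment libraries.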
